A study of Mus musculus with 12 samples.

Results

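The expression of 10 genes of the p53 pathway was followed through the study's 3 groups of mouse neural stem cells: Trp53, which encodes p53, and Mdm2, Bax, Bbc3, Pmaip1, Ccng1, Sesn2, Phlda3, Eda2r and Zmat3, which p53 is known to activate. They were chosen by name and matched by symbol and Ensembl identifier, which gave 10 of the 45792 genes in the deposited tables. All 10 passed the filter on low counts in every comparison.

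p53 is a transcription factor that is kept scarce in unstressed cells and accumulates when DNA is damaged or the cell is otherwise stressed. It binds a short consensus element near its target genes and raises genes that halt the cell cycle, trigger cell death or adjust metabolism, as well as Mdm2, whose product marks p53 for destruction and so closes a feedback loop. Much of the control of p53 acts on the protein, which RNA sequencing does not measure. In neural stem cells p53 is known to restrain self-renewal and proliferation.

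The cells were primary neural stem cells (NSCs), grown with EGF and FGF in serum-free medium from the forebrains of neonatal pups. Ncf1 encodes an organizer subunit of the Nox2 NADPH oxidase, which makes reactive oxygen species, and Igfbp2 is a secreted protein that binds insulin-like growth factors. The groups were 4 untreated WT cultures (9 to 12), 4 untreated Ncf1-/- cultures (1 to 4) and 4 Ncf1-/- cultures given recombinant mouse Igfbp2 (5 to 8). According to the labels the dose was 100 ng/ml, added 48 h after plating, and RNA was taken 48 h later, whereas the study's methods state a lower dose. The methods describe pups of 1 to 2 days of age, 4 of each genotype, and a vehicle-treated and an Igfbp2-treated culture from each Ncf1-/- pup, so that by this account the 8 Ncf1-/- cultures came from 4 animals and are not all independent. The sex-linked transcripts below differed within every such pair. No WT culture received Igfbp2, so cultures with and without Igfbp2 could be compared only among Ncf1-/- cells.

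The p53 consensus response element consists of a pair of adjoining 10-base motifs, each with a CNNG core. It was sought in RefSeq promoter windows on GRCm38.p6, from 250 bases before to 50 after each annotated start, with both cores intact and at most 3 mismatches elsewhere in the 20 bases. The element reads alike on both strands, so a single scan covered both, and the limit of 3 mismatches was set after the sequences had been seen. Of 32851 windows, 453 held a match (1.38%), and these belonged to 441 of 27025 genes (1.63%). A window was listed for 8 members, Pmaip1 and Zmat3 being the others, and 3 of the 8 held a match. These 3 are shown with that of Cdkn1a, which encodes the cell cycle inhibitor p21 and is the best known p53 target, so that the elements can be set beside the expression values. Capitals mark the CNNG cores, and each sequence runs 5′ to 3′ on the strand of its gene.
Ccng1, 1 mismatch, chr11:40755462-40755481, minus strand, 195 bases before the start: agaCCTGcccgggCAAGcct
Bbc3, 3 mismatches, chr7:16309486-16309505, plus strand, 97 bases before the first of its 3 listed starts: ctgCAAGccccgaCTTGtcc
Trp53, 3 mismatches, chr11:69580284-69580303, plus strand, 75 bases before the start: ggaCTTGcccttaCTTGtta
Cdkn1a, 1 mismatch, chr17:29090928-29090947, plus strand, 51 bases before the first of its 2 listed starts: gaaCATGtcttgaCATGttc
The windows of Phlda3, Bax, Mdm2, Eda2r and Sesn2 had no match within these letters. A match describes the sequence and does not show binding, and elements in introns or farther upstream were not searched.

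Libraries held 18201622 to 34086554 estimated counts (median 20932987). Values below are CPM, counts scaled to a common library size with TMM factors, and differences are log2 fold changes from edgeR's quasi-likelihood test over 15706 genes, called at a Benjamini-Hochberg adjusted p under 0.05. WT cultures varied more (biological coefficient of variation 0.25) than Ncf1-/- (0.116) or Igfbp2-treated cultures (0.121). Ncf1 itself had 1 to 7 counts in every library, WT included, so the genotype could not be checked from these data. Y-linked transcripts (Ddx3y, Eif2s3y, Kdm5d and Uty) summed to 107 to 118 CPM in WT cultures 9 to 11 and 105 to 116 CPM in Ncf1-/- cultures, but to 6.46 CPM in WT culture 12 and 7.79 to 9.18 CPM in the Igfbp2-treated cultures. Xist, the RNA that silences an X chromosome, was at 3.87 to 5.22 CPM in WT cultures 9 to 11, 72.3 to 87.8 CPM in Ncf1-/- cultures, 291 CPM in WT culture 12 and 166 to 275 CPM in Igfbp2-treated cultures. Sex-linked expression therefore differed between all Ncf1-/- and all Igfbp2-treated cultures, and Igfbp2 and this difference cannot be told apart. One of the study's sample sheets lists library 12 under apocynin, an inhibitor of NADPH oxidase, whereas the labels give it as untreated WT. The labels were followed, and calls of members between pairs of groups that changed without WT culture 12 are given with and without it.

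Untreated Ncf1-/- NSCs were compared with WT NSCs to ask how loss of Ncf1 bears on the pathway. In Ncf1-/- cells 6 members were higher, led by Pmaip1 (3.55-fold), Eda2r (2.53-fold) and Ccng1 (1.87-fold), followed by Phlda3 (1.58-fold), Bax (1.35-fold) and Trp53 (1.34-fold). Zmat3 was lower (0.782-fold), and Mdm2, Bbc3 and Sesn2 did not pass the test. The 7 of 10 members called stand against 57.2% of all tested genes, the 6 called higher against 28.9%, and the 1 called lower against 28.2%. There were 6 members that did not overlap between the groups, all higher in Ncf1-/-, against 51.2% of all genes without overlap and 26.1% without overlap and higher. The median log2 fold change of the members was 0.42, against 0.02 over all genes. Without WT culture 12, 7 members were called, all of them higher: Sesn2 joined (0.26, adjusted p = 0.0225) and Zmat3 left (-0.35, adjusted p = 0.0510). With library totals, which moved the median of all genes to 0.19, 8 members were called, all of them higher: Mdm2 (0.31, adjusted p = 0.00630) and Sesn2 (0.35, adjusted p = 0.0205) joined and Zmat3 left (-0.17, adjusted p = 0.316). The shares of all genes above are for all 12 libraries with TMM scaling, and none is given for these alternatives.

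**Figure D1:**
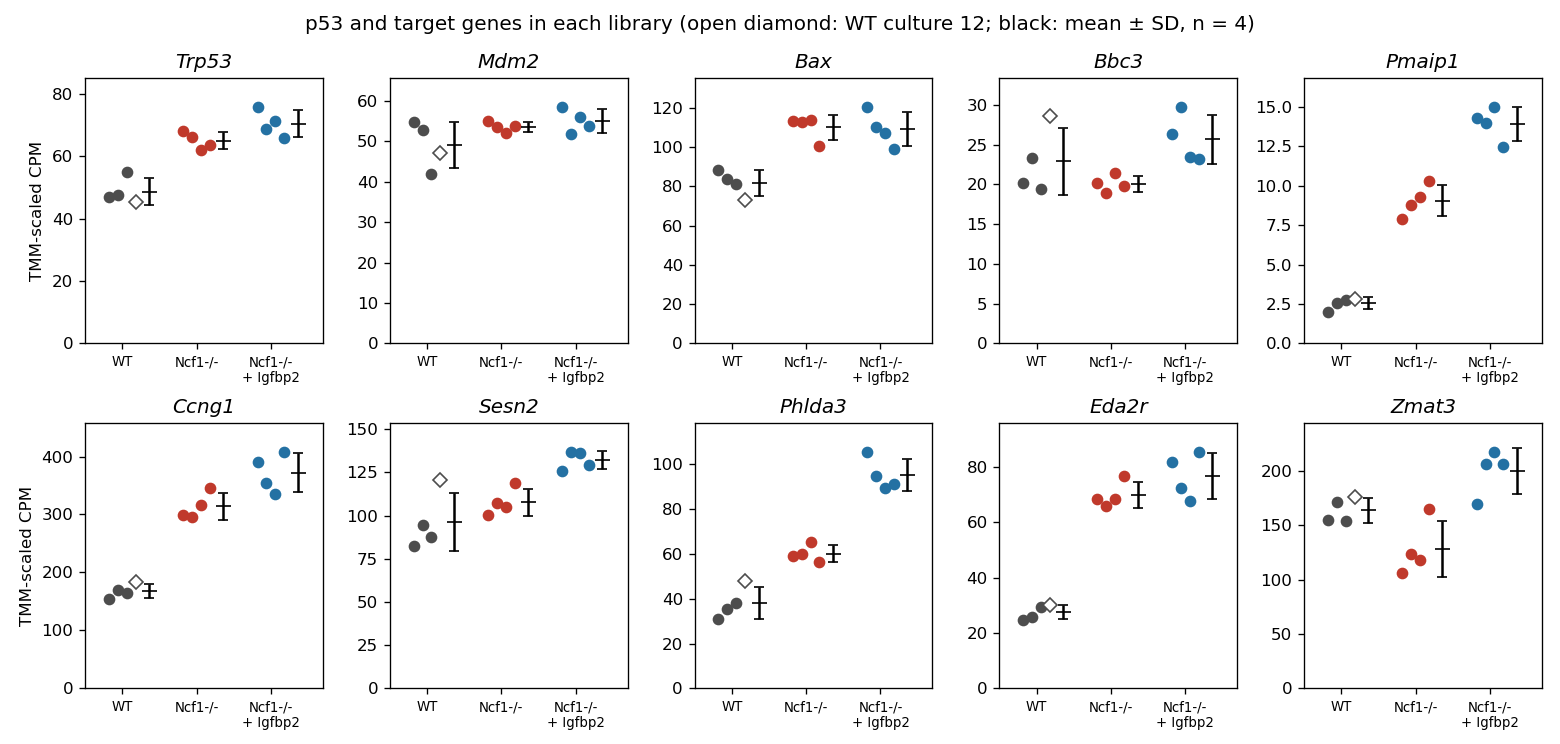
TMM-scaled CPM (y axis, from 0) of the 10 genes in each library of the 3 groups; points are libraries in order of culture number, the open diamond is WT culture 12, and black bars give the mean ± SD of 4 libraries. Pmaip1 and Phlda3 step up from WT to Ncf1-/- to Igfbp2-treated cultures without overlap, Mdm2 lies between 41.9 and 58.5 CPM throughout, and Zmat3 is lowest in Ncf1-/- cultures.

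Trp53 (ENSMUSG00000059552, chr11:69580348-69591873 on GRCm38) was at 46.8, 47.6, 54.9 and 45.2 CPM in WT cultures 9 to 12. It was at 68.1, 66.0, 61.8 and 63.7 CPM in Ncf1-/- cultures 1 to 4, and at 75.8, 68.8, 71.3 and 65.9 CPM in Igfbp2-treated cultures 5 to 8. Every Ncf1-/- library lay above every WT library, while the Ncf1-/- and Igfbp2-treated libraries overlapped. In Ncf1-/- against WT cells Trp53 differed by 0.42 ± 0.08 (log2, SE, adjusted p = 0.000499), a call lost by the method of the study applied to TPM (0.43, adjusted p = 0.147). Neural stem cell, oligodendrocyte, astrocyte, neuron, fibroblast and pericyte transcripts differed between the same groups and are described further on. The endothelial marker Kdr and the microglia marker Itgam differed as well. In such bulk libraries, fewer cells of a type and less RNA per cell cannot be told apart.

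Mdm2 (ENSMUSG00000020184, chr10:117688875-117710758), the ubiquitin ligase that p53 induces and that degrades p53, was not called in any of the 3 comparisons when all 12 libraries were fitted with TMM scaling. Its level was 54.7, 52.7, 41.9 and 47.2 CPM in WT, 54.9, 53.6, 52.0 and 53.7 CPM in Ncf1-/-, and 58.5, 51.7, 55.9 and 53.7 CPM in Igfbp2-treated cultures. All groups overlapped. Mdm2 differed by 0.13 between Ncf1-/- and WT cells, with a 95% interval of -0.06 to 0.31, and that between Igfbp2-treated and untreated Ncf1-/- cells was 0.04 (-0.15 to 0.22). The first interval ended below the differences of Ccng1 and Eda2r in the same comparison.

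Among the cell death effectors, the proteins that act on the mitochondrial outer membrane, Pmaip1 changed most. Pmaip1 (ENSMUSG00000024521) encodes NOXA, a BH3-only protein that neutralizes MCL1. It had 2.0, 2.59, 2.75 and 2.84 CPM in WT, 7.88, 8.81, 9.27 and 10.3 CPM in Ncf1-/-, and 14.3, 14.0, 15.0 and 12.5 CPM in Igfbp2-treated cultures. In CPM the 3 groups stood apart without overlap. Pmaip1 had 44 to 96 reads per WT library, 181 to 276 per Ncf1-/- library and 233 to 314 per Igfbp2-treated library. Before scaling, its reads overlapped between the Ncf1-/- and Igfbp2-treated libraries. Its difference between Ncf1-/- and WT was 1.83 ± 0.13 (adjusted p = 2.68e-07), the largest among the members.

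Bax (ENSMUSG00000003873, chr7:45461695-45466903), which forms the pores through which mitochondria release cytochrome c, was at 88.4, 83.8, 81.2 and 73.2 CPM in WT cultures. It was at 113.2, 112.8, 114.0 and 100.6 CPM in Ncf1-/- and at 120.4, 110.0, 106.9 and 99.1 CPM in Igfbp2-treated cultures. All WT libraries lay below all others, and culture 4 stood below the other Ncf1-/- cultures. Bax was higher in Ncf1-/- than in WT cells by 0.43 ± 0.08 (adjusted p = 0.000688).

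Bbc3 (ENSMUSG00000002083, chr7:16308398-16318334) encodes PUMA, another BH3-only protein and among the strongest p53-dependent inducers of apoptosis. It was at 20.1, 23.3, 19.4 and 28.6 CPM in WT, 20.1, 19, 21.4 and 19.7 CPM in Ncf1-/-, and 26.4, 29.7, 23.4 and 23.2 CPM in Igfbp2-treated cultures. WT culture 12 was as high as the Igfbp2-treated cultures, and the other WT cultures, at 19.4 to 23.3 CPM, overlapped the Ncf1-/- ones. Between Ncf1-/- and WT cells the log2 fold change was -0.19, with an interval of -0.45 to 0.08. Of the members with a match to the p53 element in the promoter window, Ccng1 and Trp53 were thus higher in Ncf1-/- cells and Bbc3 was not called.

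The remaining targets act on p53 itself, on growth signalling or on RNA. Ccng1 (ENSMUSG00000020326, chr11:40748552-40755309), cyclin G1, brings a phosphatase to Mdm2. Among the 8 members with a promoter window searched, it had the closest match to the consensus. It was at 155, 169, 165 and 183 CPM in WT, 298, 296, 317 and 346 CPM in Ncf1-/-, and 391, 355, 335 and 408 CPM in Igfbp2-treated cultures. The WT libraries lay far below the others, and the 2 Ncf1-/- groups overlapped. Ccng1 was higher in Ncf1-/- cells by 0.90 ± 0.09 (adjusted p = 3.22e-06).

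Eda2r (ENSMUSG00000034457, chrX:97333837-97377234), a receptor of the tumour necrosis factor family for the ectodysplasin isoform A2, was at 24.8, 25.9, 29.3 and 30.2 CPM in WT cultures. It was at 68.3, 65.9, 68.3 and 76.7 CPM in Ncf1-/- and 81.7, 72.4, 67.6 and 85.4 CPM in Igfbp2-treated cultures. WT libraries lay below all others. Eda2r exceeded its WT level by 1.34 ± 0.10 (adjusted p = 2.51e-07). The gene is X-linked, and Xist was lower in WT cultures 9 to 11 than in Ncf1-/- cultures. WT culture 12, with the highest Xist of all libraries, had Eda2r at 30.2 CPM, against 24.8 to 29.3 CPM in the other WT cultures. The part of sex-linked expression in the difference was not tested.

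Phlda3 (ENSMUSG00000041801, chr1:135766085-135769134) encodes a small pleckstrin-homology protein that competes with AKT for membrane lipids and so restrains AKT signalling. It was at 31.1, 35.5, 37.9 and 47.8 CPM in WT, 59.0, 59.8, 65.1 and 56.4 CPM in Ncf1-/-, and 105.4, 94.7, 89.4 and 91.1 CPM in Igfbp2-treated cultures. As for Pmaip1, the 3 groups did not overlap. Against WT, Ncf1-/- cells had a log2 fold change of 0.66 ± 0.11 (adjusted p = 0.000286), which the method of the study did not call (0.67, adjusted p = 0.0644).

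Sesn2 (ENSMUSG00000028893, chr4:132492804-132510456), sestrin 2, is a leucine sensor that restrains mTORC1 and also responds to oxidative and endoplasmic reticulum stress. Its level was 82.5, 94.6, 87.5 and 120.8 CPM in WT, 100.1, 107.5, 104.9 and 118.7 CPM in Ncf1-/-, and 125.8, 137.0, 136.4 and 129.6 CPM in Igfbp2-treated cultures. WT culture 12 was higher than any Ncf1-/- culture, and the other WT cultures were lower than all of them. The difference between Ncf1-/- and WT was 0.16 ± 0.11 (adjusted p = 0.218).

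Zmat3 (ENSMUSG00000027663, chr3:32334792-32365665), a zinc finger protein that binds RNA and affects splicing and stability of transcripts, ran the other way. It was at 154, 171, 153 and 176 CPM in WT, 106, 124, 118 and 165 CPM in Ncf1-/-, and 169, 206, 217 and 206 CPM in Igfbp2-treated cultures. Ncf1-/- culture 4 overlapped the WT range and the other 3 lay below it. The difference between Ncf1-/- and WT was -0.35 ± 0.13 (adjusted p = 0.0300). This call was lost in 12 of 20 alternative analyses, among them leaving out WT culture 10 or 12, Ncf1-/- culture 1, 2 or 3, or Igfbp2-treated culture 8. The value was -0.54 without Ncf1-/- culture 4 and -0.27 without Ncf1-/- culture 1.

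**Figure D2:**
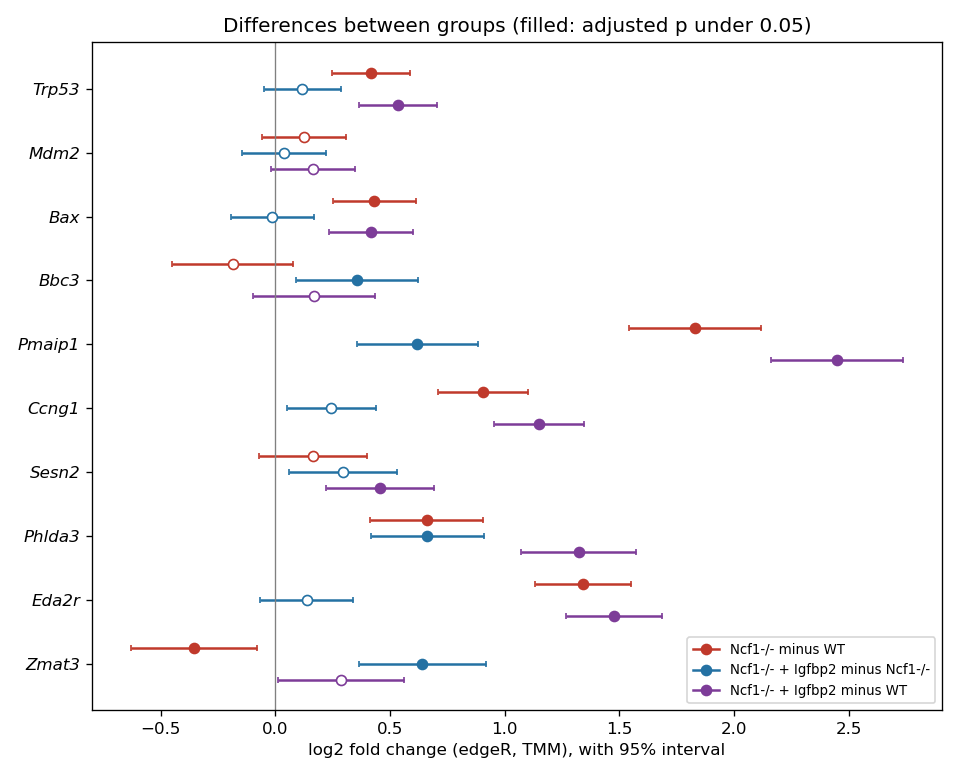
log2 fold changes (x axis) with 95% intervals from edgeR for the 10 genes in the 3 comparisons; filled points have an adjusted p under 0.05. Filled points of 6 genes lie to the right of 0 in the comparison of Ncf1-/- with WT, and Mdm2 has no filled point.

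Igfbp2-treated and untreated Ncf1-/- NSCs were compared to ask what differed with added Igfbp2 in cells that lack Ncf1. All treated cultures also differed from all untreated ones in sex-linked transcripts, as given above. Igfbp2 and that difference cannot be told apart, and "after Igfbp2" names the treated cultures only. With TMM scaling 4 members were higher after Igfbp2: Phlda3 (0.66 ± 0.11, adjusted p = 0.00228), Zmat3 (0.64 ± 0.13, adjusted p = 0.00460), Pmaip1 (0.62 ± 0.12, adjusted p = 0.00418) and Bbc3 (0.36 ± 0.12, adjusted p = 0.0497). The 4 of 10 called stand against 25.0% of all tested genes, or 14.2% called higher. The groups did not overlap for 5 members, the 4 above and Sesn2 (0.29 ± 0.11, adjusted p = 0.0643), all with the Igfbp2-treated cultures higher, against 34.1% of all genes without overlap and 19.3% without overlap and higher. Ccng1 (0.24 ± 0.09, adjusted p = 0.0637), Eda2r (0.14 ± 0.09) and Trp53 (0.12 ± 0.08, interval -0.05 to 0.29) did not pass the test. Bax differed by -0.01, with an interval of -0.20 to 0.17. Some fibroblast, pericyte, endothelial, neuron, astrocyte and neural stem cell markers were called in this comparison too and are given with the other cell types.

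The direction of these differences depended on the scaling. The median log2 fold change of all genes was 0.04 with TMM, -0.23 with library totals, -0.30 on log2(TPM + 1) and -0.42 on log2(TPM + 0.1). On those scalings the members' median was 0.27, -0.00482, -0.18 and -0.20. Relative to the median of all genes, the members' median stood higher by 0.23, 0.23, 0.11 and 0.22 in the same order, and Phlda3 by 0.63, 0.62, 0.47 and 0.60. Phlda3, Pmaip1 and Zmat3 kept a positive log2 fold change on all 4 scalings. Phlda3 was called with library totals (0.39, adjusted p = 0.0185) but not on either TPM scale (0.17, adjusted p = 0.425, and 0.18, adjusted p = 0.428), and Pmaip1 and Zmat3 were called on none of the 3. Bbc3 kept its call in 6 of 21 alternatives and turned negative in 3, and leaving out any single Ncf1-/- or Igfbp2-treated culture ended it, with adjusted p of 0.0715 to 0.213, as did leaving out WT culture 10 (adjusted p = 0.0882). Mdm2 and Bax were called lower on the other 3 scalings, Mdm2 at -0.23 (adjusted p = 0.0416) with library totals and -0.44 (adjusted p = 0.0175) on log2(TPM + 1), and Bax at -0.29 (adjusted p = 0.0233) and -0.51 (adjusted p = 0.0116). The 4 members called higher and 0 lower with TMM thus became 1 higher and 2 lower with library totals and 0 higher and 2 lower on either TPM scale. The shares of all tested genes given above are for TMM scaling, and none is given for the other scalings. In the fit of culture pairs, which left out the WT cultures, Sesn2 was called as well (0.25, adjusted p = 0.0254) and the 4 calls above held. Sex-linked transcripts differed within every such pair, so the block may not match cultures of the same animal. Sesn2 was also called without WT culture 12 (0.26, adjusted p = 0.0309), 9 (adjusted p = 0.0494) or 11 (adjusted p = 0.0488) or Ncf1-/- culture 4 (0.36, adjusted p = 0.0402), the last of which brought in Ccng1 too (0.31, adjusted p = 0.0301).

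**Figure D3:**
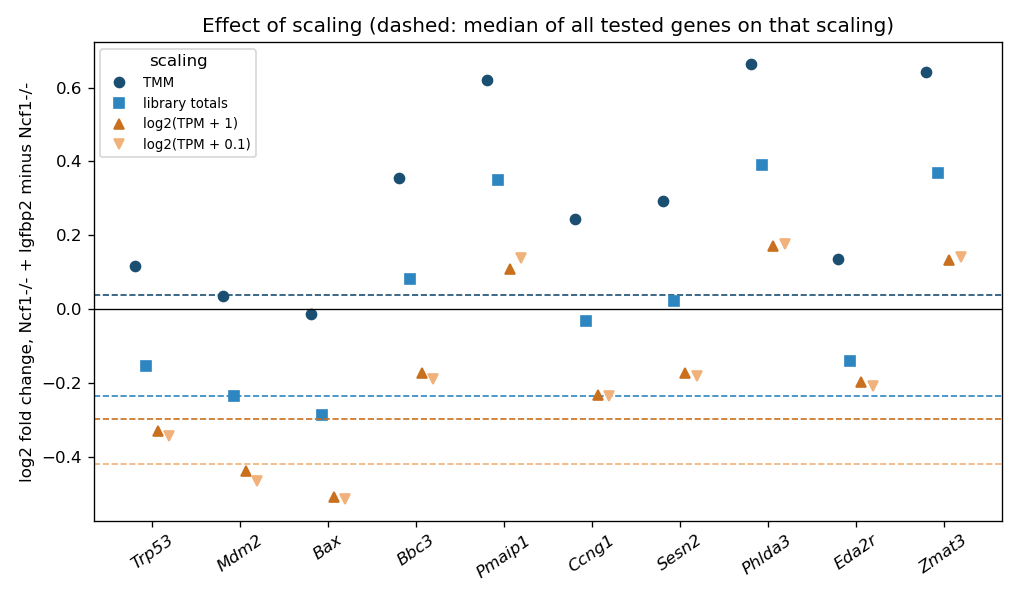
log2 fold change of Igfbp2-treated minus untreated Ncf1-/- cultures (y axis) for the 10 genes on 4 scalings; each dashed line is the median of all tested genes on the scaling of its colour. Phlda3, Pmaip1 and Zmat3 lie above 0 and above the dashed line on every scaling, and every gene lies lower on the other 3 scalings than with TMM.

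Igfbp2-treated Ncf1-/- NSCs were also set against WT NSCs, a comparison that shares its groups with the other 2. In the Igfbp2-treated cultures 7 members were higher and none was lower, against 62.4% of all genes called, 31.6% called higher and 30.8% called lower: Pmaip1 (2.45 ± 0.13, adjusted p = 3.13e-08), Eda2r (1.48 ± 0.10), Phlda3 (1.32 ± 0.12), Ccng1 (1.15 ± 0.09), Trp53 (0.53 ± 0.08), Sesn2 (0.46 ± 0.11) and Bax (0.42 ± 0.08). The same 7 did not overlap with WT, all of them higher, against 54.3% of all genes without overlap, 27.8% higher and 26.6% lower. Zmat3 (0.29, interval 0.01 to 0.56, adjusted p = 0.0661), Bbc3 (0.17, -0.10 to 0.43) and Mdm2 (0.16, -0.02 to 0.35) did not pass the test. Mdm2 was called higher without WT culture 9 (0.22, adjusted p = 0.0467) and was at 0.07 (adjusted p = 0.546) without WT culture 12, and Zmat3 was called higher without Ncf1-/- culture 1 (adjusted p = 0.0493) or 4 (adjusted p = 0.0256). In log2 units, the Igfbp2-treated cultures thus differed from WT by more than the untreated Ncf1-/- cultures did for Pmaip1 (2.45 against 1.83) and Phlda3 (1.32 against 0.66), while Bax had 0.42 against 0.43. For Zmat3 the value was -0.35 without and 0.29 with Igfbp2. On log2(TPM + 1), where the median of all genes was -0.25, 4 members were higher and 1, Mdm2, was lower (-0.38, adjusted p = 0.0224). Bax (-0.02, adjusted p = 0.929), Trp53 (0.12, adjusted p = 0.542) and Sesn2 (0.04, adjusted p = 0.876) were not called there, and Pmaip1 had 1.20 against 1.09 without Igfbp2. Only WT culture 12 shared the low Y-linked level of the Igfbp2-treated cultures, so this comparison could not be repeated among libraries of like sex-linked expression.

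A test over all 3 groups at once called 8 of the 10 members, against 71.6% of all genes. Bbc3 (adjusted p = 0.0539) and Mdm2 (adjusted p = 0.202) were the exceptions. Without WT culture 9, 11 or 12 the number was 9.

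Levels of different genes were compared as CPM per kilobase of the effective transcript length. In WT cultures Bax was the highest (117, range 104 to 126), followed by Ccng1 (50.2, 46.2 to 54.6). Phlda3 (30.0), Trp53 (29.6), Sesn2 (29.1), Zmat3 (24.9), Mdm2 (24.2) and Bbc3 (18.5) followed, and each overlapped the next in this order. Eda2r (9.54, 8.68 to 10.5) and Pmaip1 (1.03, 0.807 to 1.14) were lower than all of these. Pmaip1 stayed the lowest and Bax the highest in all groups, at 3.68 and 160 in Ncf1-/- and 5.62 and 155 in Igfbp2-treated cultures. Phlda3 rose from the level of Trp53 in WT to 47.8 in Ncf1-/- and 75.1 in Igfbp2-treated cultures, above Trp53 at 39.6 and 43.3.

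**Figure D4:**
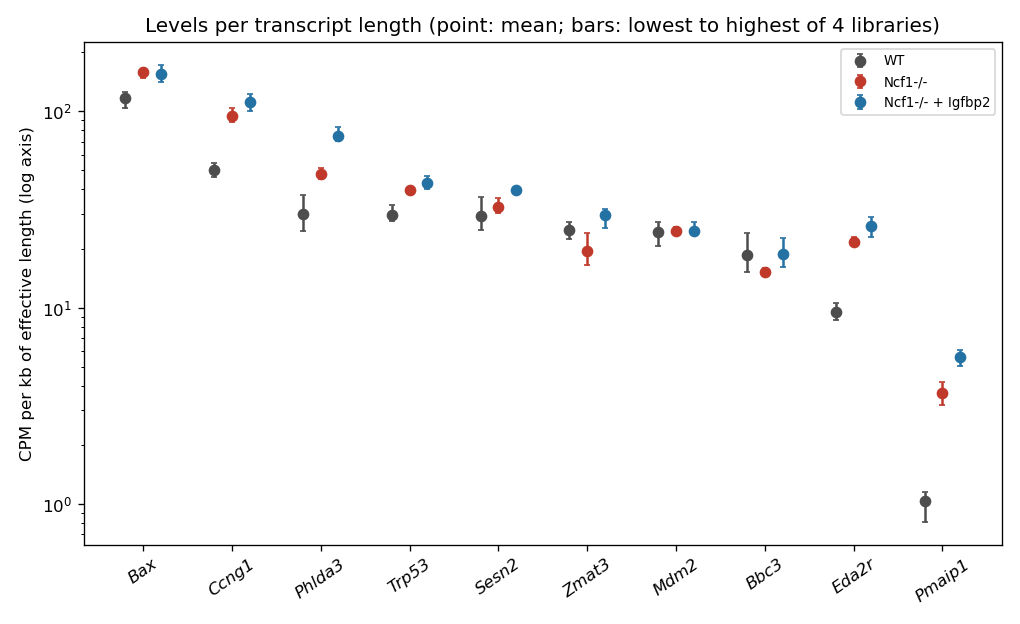
Level of each gene as CPM per kilobase of effective length (log y axis), by group; points are means and bars run from the lowest to the highest of 4 libraries. Bax is highest and Pmaip1 lowest in every group, and the bars of the genes from Phlda3 to Bbc3 overlap from one to the next in WT.

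Within groups the members varied together only in part. After each library's group mean was removed, Ccng1 and Eda2r had r = 0.90 over the 12 libraries and Bbc3 and Phlda3 had r = 0.71, whereas Bax went against Sesn2 (r = -0.73) and Zmat3 (r = -0.72). Trp53 correlated with no member beyond -0.47 to 0.44. These values describe 12 libraries that share 3 group means and a common scaling. WT culture 12 was the highest WT library for 7 of the 10 members and the lowest for Trp53 and Bax.

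Across the 12 libraries, with the group differences left in, the genes of at least 5 CPM whose log2 CPM followed Trp53 most closely were Mrpl37 (r = 0.991), Cops7a (0.981), Myl12a (0.980), Rhod (0.979) and Nrgn (0.978), out of 11162 compared. Mrpl37 encodes a protein of the mitochondrial ribosome and Cops7a a subunit of the COP9 signalosome. Mrpl37 was at 28.9 to 36.9 CPM in WT, 45.6 to 51.1 CPM in Ncf1-/- and 48.4 to 57.6 CPM in Igfbp2-treated cultures, in the same order of groups as Trp53.

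Other genes of the pathway were taken from lists of regulators and of targets by function. Their counts stand against 28.9% of all tested genes called higher and 28.2% called lower in Ncf1-/- than in WT cells, with a median of 0.02, and against 14.2% higher and 10.7% lower after Igfbp2, with a median of 0.04. These shares are from the fit of all 12 libraries with TMM scaling, and none is given for the alternatives. Among 18 tested arrest and signalling targets, 11 were higher and 1 was lower in Ncf1-/- than in WT cells, with a median log2 fold change of 1.24. The 11 included Psrc1 (2.21), Gtse1 (2.09), Ckap2 (1.95) and E2f7 (1.63), named after their values were seen. The cell cycle genes of the last list below had a median of 2.01. Like those genes, these were not called after Igfbp2 with TMM scaling. The part of cell cycle expression in the median of the 18 was not tested. Cdkn1a was at 35 to 82.6 CPM in WT, 128 to 149 CPM in Ncf1-/- and 276 to 311 CPM in Igfbp2-treated cultures, so that no groups overlapped. It was higher by 1.44 ± 0.22 in Ncf1-/- cells (adjusted p = 9.11e-05) and by a further 1.06 ± 0.21 after Igfbp2 (adjusted p = 0.00477), although the latter call was lost in 3 alternatives. Gdf15, a secreted stress cytokine, was at 0.273 to 3.34 CPM in WT, 5.05 to 7.28 CPM in Ncf1-/- and 21.9 to 25.9 CPM after Igfbp2. Epha2, an ephrin receptor, followed the same steps at 0.0910 to 0.803, 3.48 to 5.56 and 9.33 to 14.4 CPM. Both started from few reads, with 6 to 60 for Gdf15 and 2 to 28 for Epha2 per WT library. The highest Gdf15 value in WT was that of culture 12. Gadd45a, which takes part in growth arrest and DNA repair, was lower in Ncf1-/- cells (-0.62 ± 0.19, adjusted p = 0.0123) and higher after Igfbp2 (0.60 ± 0.19, adjusted p = 0.0343). Its WT and Ncf1-/- libraries overlapped. WT culture 11, at 8.63 CPM, lay below all Ncf1-/- cultures (9.18 to 10.4 CPM), and the other WT cultures were at 15.2 to 19.1 CPM. After Igfbp2, 5 of the 18 were higher and 1, Rprm, was lower (-0.38 ± 0.09, adjusted p = 0.0106). The fifth that was higher, Trp53cor1 (0.39, adjusted p = 0.0280), is named after its value was seen. Leaving out Ncf1-/- culture 1, 2 or 3 or Igfbp2-treated culture 6, 7 or 8 left 3 higher, and 2 were higher on the TPM scales by limma. In the comparison with WT, the method of the study, applied to TPM, called 7 in place of 11, and without WT culture 12 there were 3 lower in place of 1.

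Of 15 tested cell death targets, 12 were higher and 1 was lower in Ncf1-/- cells (median 0.66). Pidd1, which assembles a caspase-2 platform, was at 6.40 to 7.23 CPM in WT and 17.2 to 19.2 CPM in Ncf1-/- cultures, and Trp53i11 was at 53 to 79.4 and 145 to 189 CPM. Bcl2l11, which encodes the BH3-only protein BIM, was the exception (-0.63 ± 0.10, adjusted p = 0.000186). By the method of the study, applied to TPM, 2 of the 15 were higher. After Igfbp2, 3 of the 15 were higher with TMM scaling and 0 on the TPM scales by limma, against 6 in the fit of only the 2 groups and 5 with culture pairs as a block. Perp, named after its values were seen, was at 1.11 to 1.38 CPM after Igfbp2 against 0.348 to 0.839 CPM. Another was Tnfrsf10b, the mouse TRAIL receptor, at 4.64 to 8.74 CPM in WT, 12.4 to 14.0 CPM in Ncf1-/- and 22.2 to 26.2 CPM in Igfbp2-treated cultures. Aen, an apoptosis-enhancing nuclease, rose by 0.29 ± 0.08 (adjusted p = 0.0227), and this call was lost or reversed in 10 alternatives.

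Of 21 tested metabolism and repair targets, 12 were higher and 1 was lower in Ncf1-/- cells (median 0.38). Ephx1, an epoxide hydrolase, was at 15.8 to 60.5 CPM in WT, 137 to 149 CPM in Ncf1-/- and 227 to 300.4 CPM in Igfbp2-treated cultures. Rps27l, a ribosomal protein paralogue that p53 induces, was at 40.0 to 48.5 CPM in WT and 97.0 to 111 CPM in Ncf1-/- cultures. It is a close paralogue of Rps27, and how reads were divided between them was not examined. Abhd4, a lipid hydrolase, was lower in Ncf1-/- cells (-0.94 ± 0.11, adjusted p = 1.08e-05). The method of the study called 7 in place of 12. After Igfbp2, 7 of the 21 were higher with TMM scaling and 0 with library totals or on the TPM scales by limma. The count fell to between 2 and 4 without Ncf1-/- culture 1, 2 or 3 or Igfbp2-treated culture 5, 6 or 8, and was 12 in the fit of only the 2 groups and 11 with culture pairs as a block. Sesn1, the closest relative of Sesn2, was at 40.0 to 47.8 CPM in Ncf1-/- and 51.4 to 76.5 CPM after Igfbp2 (0.62 ± 0.18, adjusted p = 0.0247), a call lost in 9 alternatives, and that of Ephx1 was lost in 12.

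The 23 tested regulators of p53 did not move one way: 8 were higher and 7 lower in Ncf1-/- cells, with a median of 0.09. The checkpoint kinase genes Chek2 (3.36 to 4.09 CPM in WT, 16.3 to 18.3 CPM in Ncf1-/-) and Chek1 (2.67 to 5.64 and 12.9 to 17.7 CPM), whose products phosphorylate p53, were the most raised. Hipk2, another p53 kinase, was the most lowered, from 454 to 899 CPM in WT to 109 to 169 CPM in Ncf1-/-. Crebbp and Ep300, acetyltransferases and p53 coactivators, were lower as well (-1.10 ± 0.13 and -1.02 ± 0.12). The number higher was 4 without WT culture 12, 5 without Ncf1-/- culture 3 or 4 or Igfbp2-treated culture 6, and 3 by the method of the study, which also had 3 lower. After Igfbp2, Ube4b, Ep300 and Crebbp were higher with TMM scaling. The number higher was 1 without Ncf1-/- culture 3 or Igfbp2-treated culture 6 or 7, and 0 with library totals or on the TPM scales. Mdm4, Kat5 and Daxx were lower with TMM scaling, against 11 regulators with library totals and 13 on log2(TPM + 1), Daxx (-0.24, adjusted p = 0.0238) being named after its value was seen. On the latter scalings the median of all genes was -0.23 and -0.30, and the share of all genes called lower there is not given. Mdm4, the relative of Mdm2 that inhibits p53, was at 60.7 to 69.1 CPM in Ncf1-/- and 43.5 to 52.8 CPM after Igfbp2 (-0.40 ± 0.09, adjusted p = 0.00673). Its rise in Ncf1-/- cells (0.22 ± 0.09, adjusted p = 0.0406) was lost in 14 alternatives. Ppm1d, the phosphatase induced by p53 that acts back on it, was not called in any comparison.

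The last list held 24 cell cycle genes that p53 is known to repress through p21 and the DREAM complex. All 24 were higher in Ncf1-/- than in WT cells, with a median log2 fold change of 2.01, that is, in the same direction as Cdkn1a. Ccnb2 and Ccna2, which encode cyclins B2 and A2, were at 6.96 to 12.8 and 18.6 to 41.7 CPM in WT and at 54.8 to 59.6 and 153 to 194 CPM in Ncf1-/- cultures. After Igfbp2, the fits of all 12 libraries by edgeR with TMM scaling and by DESeq2 called 0 of the 24, and 1 of them had an unadjusted p under 0.05 with either tool. The fits without the WT cultures called 9 of them lower, or 7 with the culture pairs as a block, and library totals called 7 lower. In these fits the median of all genes was -0.0020, -0.0046 and -0.23, and the share of all genes called lower is not given. The median of the 24 was -0.12 with TMM scaling. On log2(TPM + 1), limma called 21 of the 24 lower, with all genes shifted by -0.30.

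**Figure D5:**
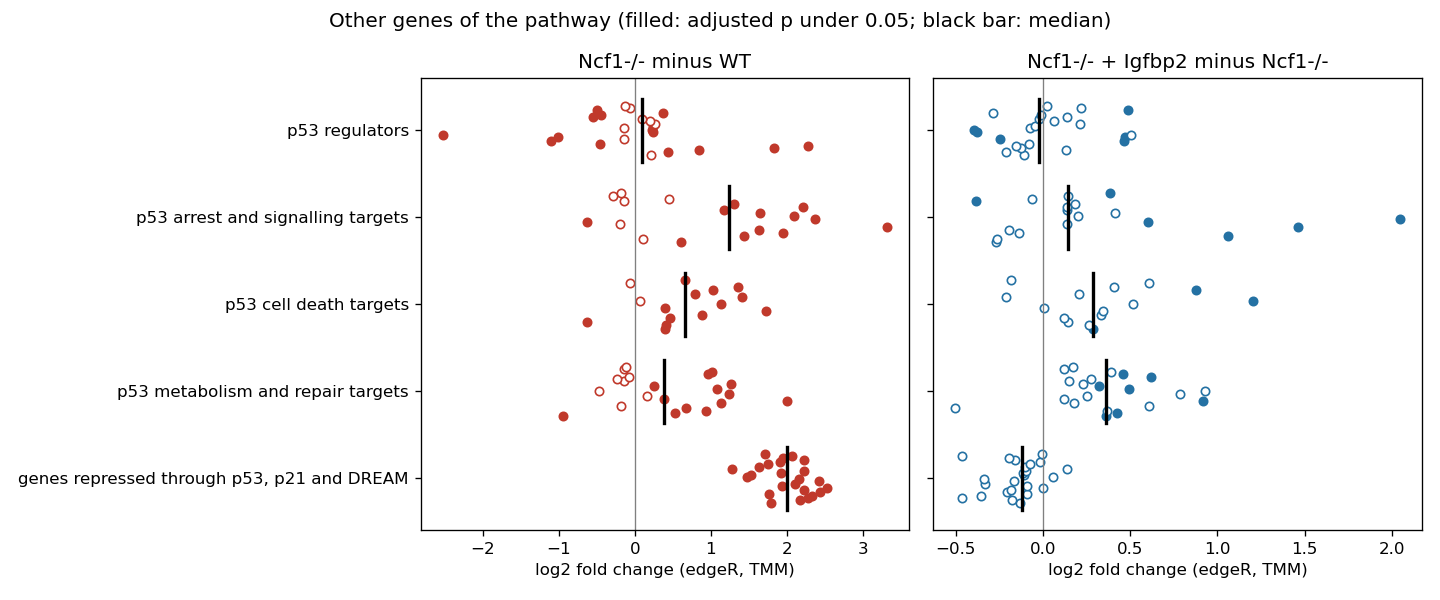
log2 fold changes (x axis) of the tested genes of 5 p53-related lists in Ncf1-/- minus WT (left) and Igfbp2-treated minus untreated Ncf1-/- (right); filled points have an adjusted p under 0.05 and black bars are medians. All 24 cell cycle genes lie to the right of 0 on the left, with a median of 2.01, and the regulators spread to both sides.

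Some transcripts of other cell types differed between Ncf1-/- and WT and, fewer of them, after Igfbp2. Their counts stand against 28.9% of all tested genes called higher and 28.2% called lower in Ncf1-/- than in WT. After Igfbp2 these shares were 14.2% and 10.7%. Neural stem cell markers (8 genes, among them Nes and Sox2) were present in every library and summed to 3234 to 9023 CPM in WT, 8377 to 8988 CPM in Ncf1-/- and 8463 to 9182 CPM in Igfbp2-treated cultures. Of the 8, 2 were higher and 5 lower in Ncf1-/- than in WT, with a median of -0.46: Nes differed by 1.92, whereas Sox2 differed by -0.97 and Prom1 by -1.34. Oligodendrocyte markers (7 of 8 tested) summed to 1677 to 9586 CPM in WT, 199 to 257 CPM in Ncf1-/- and 218 to 296 CPM in Igfbp2-treated cultures, and all 7 were lower in Ncf1-/- than in WT. Astrocyte markers summed to 5877 to 11437, 2290 to 2834 and 2457 to 3385 CPM, with 6 of 7 lower in Ncf1-/-. Neuron markers summed to 660 to 1058, 496 to 562 and 451 to 480 CPM, with 6 of 8 lower. The 9 microglia markers together summed to 0.835 to 2.13 CPM. Of these, 2 passed the filter, and 1 of the 2, Itgam, was higher in Ncf1-/- (0.97, adjusted p = 0.0146). Endothelial markers (4.57 to 10.8 CPM in WT and Ncf1-/-, 11.8 to 16.8 CPM after Igfbp2) and fibroblast and pericyte markers (10.8 to 24.6, 11.5 to 14.6 and 24.0 to 27.9 CPM) had the lowest sums after microglia. In Ncf1-/- against WT, 4 of the 6 fibroblast and pericyte markers tested were higher, Col3a1 (4.28), Acta2 (2.55), Col1a1 (1.31) and Col1a2 (1.28), and Pdgfrb (-5.36) and the endothelial marker Kdr (-1.62) were lower. After Igfbp2, 3 of 6 fibroblast and pericyte markers were higher, Col1a1 (1.05), Col1a2 (1.58) and Pdgfrb (2.02), with a median of 1.08, as was Flt1 among 3 endothelial markers (1.34, adjusted p = 0.0442). The neuron markers Dcx (-0.83) and Tubb3 (-0.61) were lower, 2 of 8, and 0 of 7 oligodendrocyte markers were called. The astrocyte marker Fgfr3 (0.63, 1 of 7) and the neural stem cell marker Msi1 (0.42, 1 of 8) were higher, which is near the share of all genes. The part of these cell types in the differences of the p53 genes was not tested.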

How the data were processed

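Ribosome-depleted RNA of 12 cultures was sequenced. The authors aligned reads with Bowtie2 and quantified genes with RSEM on GRCm38 (submitters' processing notes; versions are not given in the sources used here). The authors deposited for each library the expected counts that RSEM gave per gene. The deposited files also hold RSEM's TPM values and effective lengths. The authors merged these values into a deposited table with gene symbols, whose columns are named TPM but sum to more than TPM can, so that they were recorded as a score. Only its symbols were used.

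Expected counts (15.9% not whole) were rounded and tested with edgeR 4.0.16 in R 4.3.3 (filterByExpr, TMM, quasi-likelihood, all 12 libraries, two-sided, Benjamini-Hochberg over 15706 genes holding 99.91% of counts). Alternatives were library totals, every gene with a count, genes averaging 5 CPM or more, DESeq2 1.42.0, a fit of only the 2 groups compared, a replicate block, an adjusted p under 0.01, the study's own test on TPM, limma 3.58.1 on log2(TPM + 1) and log2(TPM + 0.1), and leaving out each library. The code was tested on simulated data. Figures were drawn with matplotlib 3.10.9.

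The members and gene lists were chosen with earlier results of these data known. Named genes were the members, Ncf1, Cdkn1a, Mdm4, Ppm1d and the 5 genes most correlated with Trp53. Lists were used in 2 comparisons, Ncf1-/- minus WT and Igfbp2-treated minus untreated. From each of 5 lists and each comparison, the called genes of at least 5 CPM with the 2 largest rises and 2 largest falls were named. The remaining names are marker genes, and Trp53cor1, Perp, Daxx, Psrc1, Gtse1, Ckap2 and E2f7, which were chosen after their values were seen. The pairing of Ncf1-/- cultures 1 to 4 with 5 to 8 comes from the study's methods and sample sheet. Deviations from group means correlated at -0.07 to 0.03 in the 4 pairs and at -0.25 to 0.26 in the 12 other combinations, and sex-linked transcripts differed within every pair.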

Additional observations from a re-analysis of the deposited data

Results flagged for a closer look

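Bax in Ncf1-/- culture 4 (100.6 CPM) lay apart from the other 3 Ncf1-/- cultures, with a gap to the nearest of them equal to 0.915 of the group's range, against a limit of 0.829 in Dixon's test for 4 samples. It was the only such value among the 30 combinations of member and group examined, and chance alone gives about 1 in 20. Without this culture Bax remained called higher in Ncf1-/- than in WT cells.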

How the results depend on the processing

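The counts of members called were 6 to 8 in Ncf1-/- minus WT under all alternatives other than the study's own test on TPM, which called 4. For Igfbp2-treated minus untreated Ncf1-/- they were 3 to 5, all higher, other than 1 higher and 2 lower with library totals, 1 lower in the study's own test and 2 lower in each limma fit, log2(TPM + 1) and log2(TPM + 0.1). For Igfbp2-treated minus WT they were 5 to 8, other than 4 in the study's own test, and all higher except Mdm2 in the limma fits. Leaving out 1 library at a time gave 6 to 7, 3 to 5 and 7 to 8 in these comparisons. The shares of all genes called are from the edgeR fit of all 12 libraries with TMM scaling, and none is given for the alternatives. Of 610 values of members under alternatives, 507 kept their direction and their side of the threshold and 42 changed sign, mostly where all genes shifted together. For Igfbp2-treated minus untreated Ncf1-/-, library totals gave Trp53 -0.15, Mdm2 -0.23, Ccng1 -0.032 and Eda2r -0.14. The study's own test gave Trp53 -0.32, Mdm2 -0.44, Bbc3 -0.15, Ccng1 -0.24, Sesn2 -0.16, Eda2r -0.20, Ep300 -0.12 and Aen -0.19. On log2(TPM + 1) limma gave Trp53 -0.33, Mdm2 -0.44, Bbc3 -0.17, Ccng1 -0.23, Sesn2 -0.17, Eda2r -0.20, Ep300 -0.14 and Aen -0.21. On log2(TPM + 0.1) it gave Trp53 -0.34, Mdm2 -0.46, Bbc3 -0.19, Ccng1 -0.23, Sesn2 -0.18, Eda2r -0.21, Ep300 -0.15 and Aen -0.21. Mdm2 was also at -0.025 with the 5 CPM minimum, -0.012 with only the 2 groups, -0.0052 with the replicate block and -0.020 to 0.056 without 1 library. For Igfbp2-treated minus WT, the study's own test gave Mdm2 -0.37, Bax -0.00034, Bbc3 -0.37 and Zmat3 -0.15. On log2(TPM + 1) these were -0.38, -0.016, -0.37 and -0.18, and on log2(TPM + 0.1) -0.40, -0.017, -0.40 and -0.19. Ppm1d was at 0.044 with library totals in Ncf1-/- minus WT. The cause was not tested. The replicate block of culture pairs called 5 members after Igfbp2, against 4 without it and 5 when only the 2 groups entered. For metabolism and repair targets called higher it gave 11, against 12 with only the 2 groups and 7 with all libraries, for cell death targets 5, 6 and 3, and for repressed cell cycle genes called lower 7, 9 and 0. The values are limited by 4 cultures a group, a wider spread in WT, and the low counts of Pmaip1, Gdf15 and Epha2 in WT.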
